A study of Sus scrofa with 12 samples.

Results

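Pyruvate entry into mitochondria was followed through 10 genes in hypoxic and normoxic porcine granulosa cells, out of 18060 genes with an expression value. The genes were chosen by name. They comprise the 2 subunits of the mitochondrial pyruvate carrier (MPC1 and MPC2), 3 core subunits of the pyruvate dehydrogenase complex (PDHA1, PDHB and DLAT), the kinases PDK1, PDK2 and PDK3 and the phosphatase PDP1 that switch the complex, and the lactate dehydrogenase subunit LDHB. Of the 10, 9 were found by gene name in the deposited table. MPC1 was found through its RefSeq position on the pig assembly and the file's own description of the row.

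Pyruvate made by glycolysis crosses the inner mitochondrial membrane through a carrier built of MPC1 and MPC2. In the matrix, the pyruvate dehydrogenase complex converts it to acetyl-CoA for the tricarboxylic acid cycle. PDK enzymes phosphorylate the PDHA1 subunit and switch the complex off, and PDP enzymes remove the phosphate and switch it on. In the cytosol, lactate dehydrogenase interconverts pyruvate and lactate, with LDHA usually linked to lactate formation and LDHB to lactate use. PDK1 and LDHA are textbook targets of hypoxia-inducible factor 1. Granulosa cells surround the oocyte in the ovarian follicle, where oxygen falls as the antral cavity grows, and the pyruvate they release is a fuel for the oocyte.

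The cells were primary granulosa cells that had been taken from the antral follicles of mature crossbred sows (Duroc × Yorkshire × Landrace) and grown in a serum-containing medium. The hypoxia group spent 12 h in 1% O2, 5% CO2 and 94% N2, and the normoxia group 12 h in 21% O2, 5% CO2 and 74% N2. Each condition had 3 biological replicates, and from each replicate an input library (poly(A) RNA, fragmented) and an IP library, pulled down with an antibody to N6-methyladenosine (m6A, a methyl mark on mRNA), were made. This gives 12 libraries, and the sample labels used here name no batch. The sources used here do not say whether replicates came from separate sows, so p-values measure the spread between these replicates, which may be technical.

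Expression was read from the 6 input libraries as FPKM, fragment numbers divided by transcript length and by library size, which sets genes on a per-length scale. The sum of FPKM ranged over the libraries from 294929.1 to 326804.1, and the read depth behind them is unknown. Hypoxia library 3 stood apart: 8886 genes reached 1 FPKM there, against 9813 and 10212 in the other hypoxia libraries and 9881 to 10108 in the normoxia libraries, and its mean correlation with its own group was 0.936, against 0.950 to 0.990 for the other 5 libraries. Results that rest on it are given with and without it. Of 13 granulosa markers 9 were expressed highly enough to be tested, and the 13 summed to 103.8 to 117.5 FPKM in hypoxia and 99.9 to 109.7 in normoxia. In the limma fit described below, INHBB was higher in hypoxia (log2 fold change 0.90, adjusted p = 0.00429). FSHR (-0.72, 0.0101) and AMHR2 (-1.07, 0.0209) were lower, and 6 markers did not pass. Of all tested genes, 5.4% were higher and 21.1% lower. After the median-ratio scaling described below, 1 marker was higher and 0 were lower. CYP19A1, AMH and STAR, which define steroidogenic or growing granulosa cells, averaged under 1 FPKM in either condition, at 0.119, 0.0542 and 0.00616 FPKM in hypoxia and 0.233, 0.118 and 0.0547 in normoxia. HSD17B1 did as well, at 0.763 FPKM in hypoxia and 0.386 in normoxia. Markers of fibroblasts and smooth muscle summed to 6371 to 7632 FPKM in hypoxia and 9794 to 11684 in normoxia, mostly from ACTA2 and TAGLN. Endothelial markers summed to 3.41 to 3.51 FPKM in hypoxia and 7.06 to 7.39 in normoxia, most of it PECAM1. The part of these cell types in the results below was not tested. Theca and stroma markers (5 of 6 matched) summed to 12.0 to 27.8 FPKM in hypoxia and 9.10 to 14.5 in normoxia, most of it PDGFRB (means 16.2 and 9.21). Leukocyte markers (7 of 8) summed to 3.90 to 7.94 FPKM in hypoxia and 3.92 to 5.43 in normoxia, with CD68 at means of 2.12 and 0.952 and CD14 at 1.86 and 2.99. Of the oocyte markers 2 of 6 were matched, with GDF9 at means of 1.02 FPKM in hypoxia and 1.24 in normoxia. PTPRC, VWF, LHCGR and DDX4 of these lists each averaged under 1 FPKM in both conditions, and 0 of 4 erythrocyte markers were matched. In bulk RNA, fewer cells of a type and less RNA per cell cannot be told apart.

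Hypoxia and normoxia were compared with limma on log2(FPKM + 1) over the 10196 genes that reached 1 FPKM in 3 or more libraries, and a gene was called at a Benjamini-Hochberg adjusted p under 0.05. Of the 10 genes 9 were tested. PDK1 rose in hypoxia, DLAT and MPC1 fell, and 6 tested genes did not pass. This is 1 gene of 9 higher and 2 lower, where 5.4% of all tested genes were higher and 21.1% lower (26.5% in both directions). The median log2 fold change was -0.35 over the 9 genes and -0.26 over all tested genes. After median-ratio scaling, which removes that general shift (median of all genes 0.017), 1 of the 9 was higher (PDK1) and 1 lower (DLAT), where 7.34% and 7.39% of all tested genes were (14.7% in both directions). Without hypoxia library 3, 1 was higher and 2 were lower, against 11.2% and 31.2% of all tested genes (42.5% in both directions). With both changes 1 was higher and 2 were lower, against 20.7% and 19.9% (40.6%). The 3 values of a condition lay above the other condition's for 1 of the 9 genes and below them for 2, against 9.25% and 34.9% of all tested genes. The phosphatase gene PDP1 was under the filter and was not tested. In the authors' deposited table PDK1 and DLAT were the members marked significant, where 13.5% of the 18060 genes were marked.

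**Figure D1:**
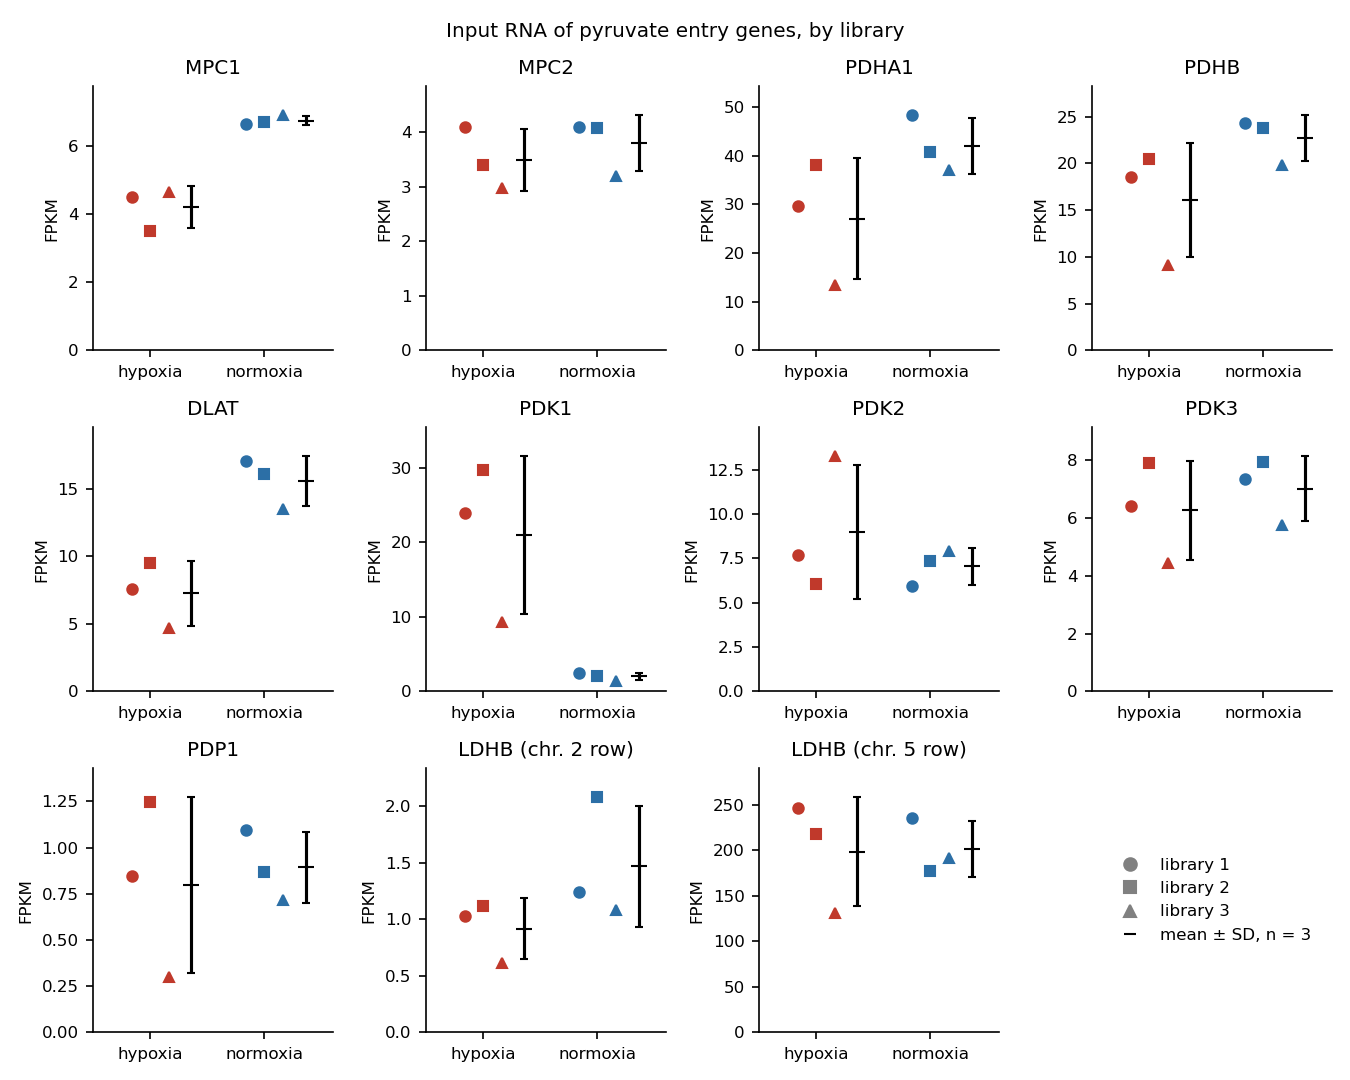
FPKM of each gene (vertical axes, each from 0) in the 3 hypoxia (red) and 3 normoxia (blue) input libraries, with mean ± SD beside the points. PDK1 lies higher in every hypoxia library (9.26 to 29.7 FPKM) than in any normoxia library (1.46 to 2.42), DLAT and MPC1 lie lower, and the values of the other genes overlap between conditions.

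The kinase gene PDK1 (ENSSSCG00000015958, chromosome 15, 78608432 to 78652962, plus strand, Sscrofa11.1) had 24.0, 29.7 and 9.26 FPKM in hypoxia, against 2.42, 2.12 and 1.46 FPKM in normoxia. All 3 hypoxia libraries lay above all 3 normoxia libraries, and hypoxia library 3 was the lowest of its group. The means were 21.0 ± 10.6 FPKM in hypoxia and 2.00 ± 0.491 in normoxia (SD, n = 3 each), a ratio of 10.5, or 13.4 without hypoxia library 3. The log2 fold change was 2.74 (SE 0.403, 95% interval 1.79 to 3.69, limma adjusted p = 0.00392), at the 99.5th percentile of all tested genes. It was 3.02 after median-ratio scaling and between 2.43 and 3.22 with each library left out in turn, with a highest adjusted p of 0.0272. In the authors' deposited table its log2 fold change was 3.39 (q-value 6.41e-20).

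The other kinase isoforms did not pass the test. PDK2 (ENSSSCG00000027198, chromosome 12, 26274606 to 26301878, plus strand), the isoform most widely expressed in mammalian tissues, had 7.68, 6.06 and 13.2 FPKM in hypoxia, against 5.91, 7.33 and 7.94 in normoxia. The groups overlapped, and hypoxia library 3 was the highest of the 6. Its log2 fold change was 0.25 (95% interval -0.39 to 0.90, limma adjusted p = 0.549) and became -0.033 without hypoxia library 3. PDK3 (ENSSSCG00000012181, chromosome X, 20486341 to 20602664, plus strand) had 6.42, 7.90 and 4.46 FPKM in hypoxia, against 7.35, 7.93 and 5.76 in normoxia. These groups overlapped as well, with a log2 fold change of -0.16 (95% interval -0.69 to 0.37, limma adjusted p = 0.651), which became 0.15 after scaling and 0.031 without hypoxia library 3.

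The make-up of the kinase pool was read as a share within each library, which does not depend on how libraries are scaled. PDK1 made up 63.0, 68.0 and 34.3% of the summed PDK1, PDK2 and PDK3 FPKM in the hypoxia libraries, against 15.4, 12.2 and 9.65% in the normoxia libraries. The shares did not overlap, and their means differed by 42.7 percentage points, or 53.1 without hypoxia library 3 (exact two-sided permutation test, p = 0.1, the smallest that 3 against 3 libraries can give, 0.125 adjusted over the 5 ratios tested). PDK3 made up 16.9, 18.1 and 16.6% in hypoxia, against 46.9, 45.6 and 38.0% in normoxia. The summed FPKM of the 3 kinases was 38.1, 43.7 and 26.96 in hypoxia, against 15.7, 17.4 and 15.2 in normoxia, so the sum was higher in every hypoxia library. This sum and the PDK3 share were added after the values were seen and carry no test.

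The kinase's own substrate gene served as a second yardstick, also added after the values were seen. PDK1 stood at 0.810, 0.781 and 0.686 FPKM per FPKM of PDHA1 in the hypoxia libraries, against 0.0502, 0.0521 and 0.0396 in the normoxia libraries. Hypoxia library 3, low for PDK1 and for PDHA1 alike, lay close to the other hypoxia libraries on this ratio. By the mean log2 ratio, PDK1 per PDHA1 was 16.1-fold higher in hypoxia (4.01 log2 units, or 4.08 without hypoxia library 3). The lower PDHA1 mean in hypoxia (27.1 FPKM, against 42.0 in normoxia) adds to this fold. For PDK1 alone the ratio of means was 10.5. For the summed kinases per PDHA1 the values were 1.29, 1.15 and 2.00 in hypoxia, against 0.325, 0.427 and 0.410 in normoxia. Whether the kinase proteins, or the phosphorylation of PDHA1, followed was not measured.

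**Figure D2:**
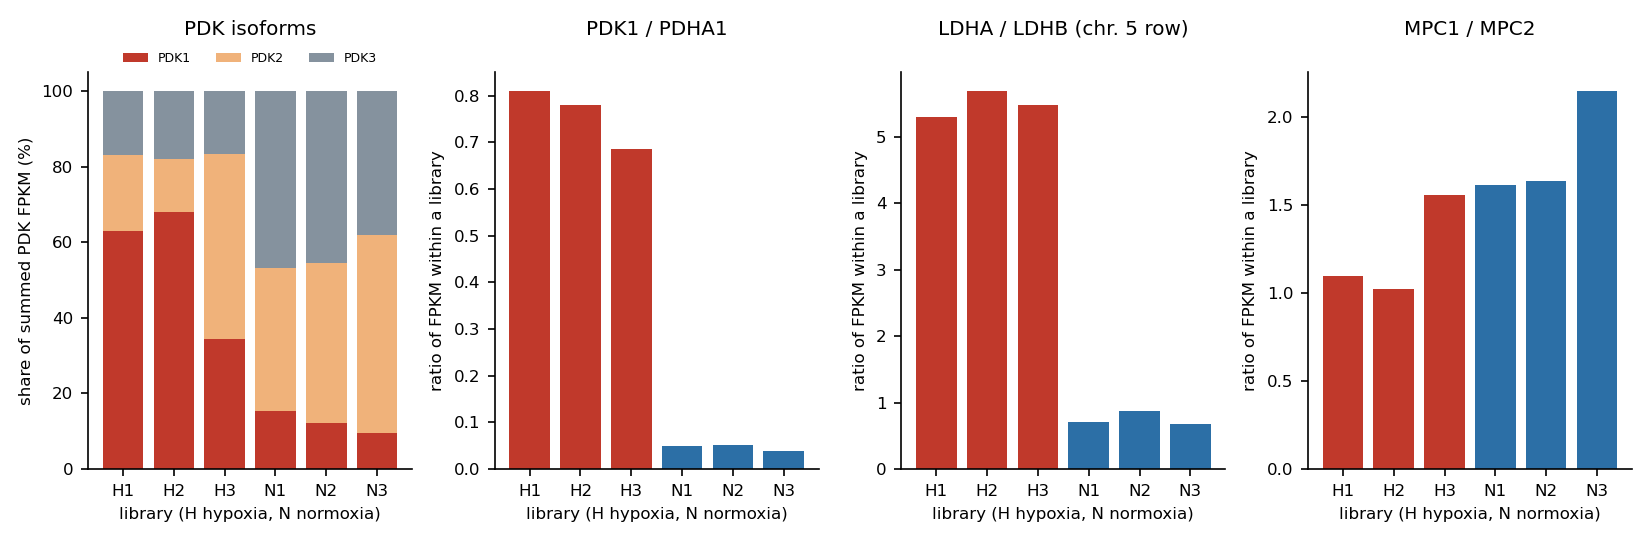
Within-library proportions for hypoxia libraries 1 to 3 (H1 to H3) and normoxia libraries 1 to 3 (N1 to N3): share of PDK1, PDK2 and PDK3 in their summed FPKM (percent), and FPKM ratios of PDK1 to PDHA1, LDHA to the chromosome 5 row of LDHB, and MPC1 to MPC2, each axis from 0. PDK1 takes 34.3 to 68.0% of the kinase FPKM in hypoxia and 9.65 to 15.4% in normoxia, and MPC1 to MPC2 is the ratio that lies lower in hypoxia.

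Among the complex subunits, DLAT (ENSSSCG00000015030, chromosome 9, 39738564 to 39796806, plus strand) codes for the acetyltransferase that forms the core and passes the acetyl group to coenzyme A. It had 7.58, 9.49 and 4.69 FPKM in hypoxia, against 17.1, 16.1 and 13.5 FPKM in normoxia. Every hypoxia library lay below every normoxia library. The means were 7.25 ± 2.42 FPKM in hypoxia and 15.6 ± 1.84 in normoxia (SD, n = 3 each), with a log2 fold change of -1.04 (SE 0.244, 95% interval -1.62 to -0.47, limma adjusted p = 0.0202). After median-ratio scaling it was -0.72 (adjusted p = 0.0438). The call was lost without hypoxia library 1 (adjusted p = 0.0641) and without normoxia library 1 (0.0819), 2 (0.0895) or 3 (0.0527), with a log2 fold change between -1.24 and -0.80 in all 6 such fits. The authors' deposited table gave -1.10 (q-value 0.0149).

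PDHA1 and PDHB code for the subunits of the component that removes carbon dioxide from pyruvate, and PDHA1 carries the serines that the kinases phosphorylate. PDHA1 (ENSSSCG00000023643, chromosome X, 15700050 to 15718903, plus strand) had 29.6, 38.1 and 13.5 FPKM in hypoxia, against 48.3, 40.7 and 36.9 in normoxia. Hypoxia library 2 overlapped the normoxia libraries and hypoxia library 3 lay well below the rest. The log2 fold change was -0.72 (95% interval -1.56 to 0.11, limma adjusted p = 0.184). It was -1.02 (adjusted p = 0.0489) without hypoxia library 2, -0.31 without hypoxia library 3 and -0.38 after scaling. PDHB (ENSSSCG00000025881, chromosome 13, 40160568 to 40167476, minus strand) had 18.6, 20.5 and 9.18 FPKM in hypoxia, against 24.3, 23.8 and 19.8 in normoxia. Its log2 fold change was -0.54 (95% interval -1.23 to 0.15, limma adjusted p = 0.226), -0.20 without hypoxia library 3 and -0.20 after scaling.

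The proportion of the subunits to each other was also read within libraries. PDHA1 to PDHB stood at 1.59, 1.86 and 1.47 in hypoxia, against 1.98, 1.71 and 1.86 in normoxia, values that overlapped (exact two-sided permutation p = 0.2, adjusted 0.2). DLAT to PDHA1 stood at 0.256, 0.249 and 0.347 in hypoxia, against 0.354, 0.396 and 0.366 in normoxia, lower in all 3 hypoxia libraries, in a comparison added after the values were seen and not tested. Hypoxia library 3, in which PDHA1 had 0.399 times and PDHB 0.470 times the mean of the other hypoxia libraries, had the value nearest to normoxia.

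The phosphatase gene PDP1 (ENSSSCG00000006107, chromosome 4, 42764441 to 42777904, minus strand), which codes for the catalytic subunit that reactivates the complex, was near the limit of what was tested. It had 0.845, 1.25 and 0.299 FPKM in hypoxia, against 1.10, 0.869 and 0.714 in normoxia, and the groups overlapped. Per summed kinase FPKM it stood at 0.0222, 0.0285 and 0.0111 in hypoxia, against 0.0699, 0.05003 and 0.0471 in normoxia. All 3 hypoxia libraries lay below all normoxia libraries on this ratio, by 1.52 log2 units, or 1.12 without hypoxia library 3 (exact two-sided permutation p = 0.1, the smallest possible, adjusted 0.125). The ratio has PDK1 in its denominator and a gene near the filter in its numerator.

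**Figure D3:**
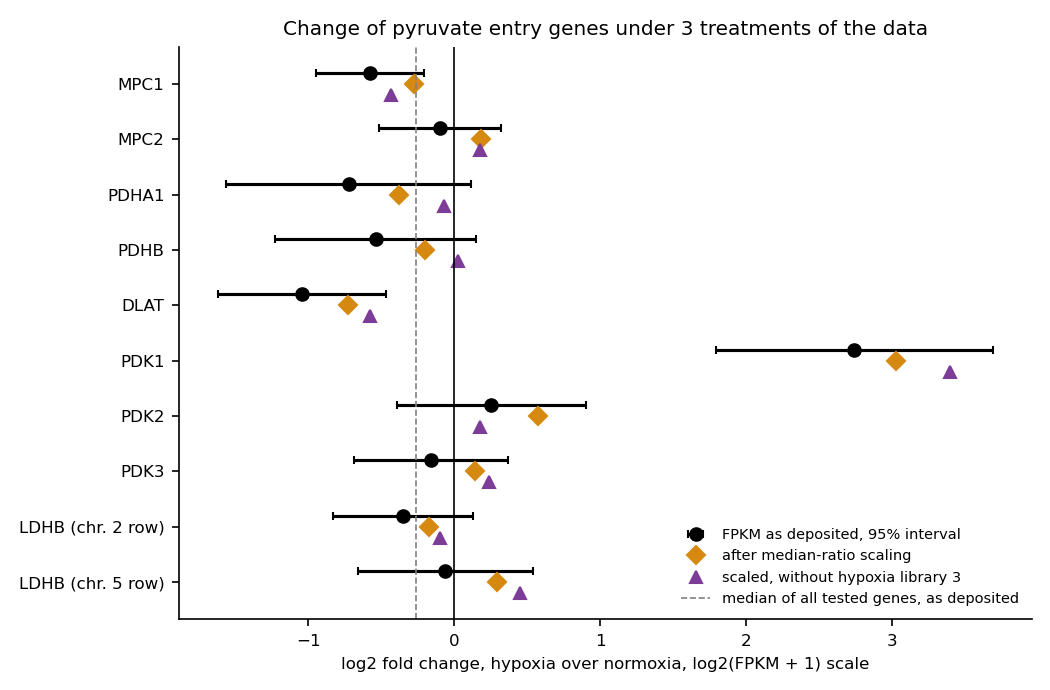
Log2 fold change of hypoxia over normoxia on the log2(FPKM + 1) scale (horizontal axis) for the 9 tested genes and the second LDHB row, as deposited with 95% intervals (black), after median-ratio scaling (orange) and after scaling without hypoxia library 3 (purple); the dashed line is the median of all tested genes, -0.26. PDK1 lies at 2.74 to 3.40 and DLAT at -1.04 to -0.58 under the 3 treatments, and MPC1 stays below 0, while PDK3, PDHB, MPC2 and the chromosome 5 row of LDHB change sign.

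At the entry step, the subunits of the carrier differed in their values. MPC1 (ENSSSCG00000032916, chromosome 1, 2541383 to 2552858, plus strand) had 4.50, 3.49 and 4.63 FPKM in hypoxia, against 6.63, 6.68 and 6.89 FPKM in normoxia. The groups did not overlap, as for 44.1% of all tested genes, and the normoxia libraries lay close together. The log2 fold change was -0.58 (SE 0.159, 95% interval -0.95 to -0.21, limma adjusted p = 0.0344). The call was lost after median-ratio scaling (-0.27, adjusted p = 0.418). It was also lost without hypoxia library 1 (adjusted p = 0.0964) or 2 (0.0703) and without normoxia library 1 (0.108), 2 (0.132) or 3 (0.127), and held without hypoxia library 3 (-0.64, 0.00651). The authors' deposited table gave -0.68 (q-value 0.381) and did not mark the gene.

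MPC2 (ENSSSCG00000006304, chromosome 4, 83069748 to 83096990, plus strand) had 4.104, 3.41 and 2.97 FPKM in hypoxia, against 4.11, 4.08 and 3.21 in normoxia. The values overlapped, with a log2 fold change of -0.096 (95% interval -0.51 to 0.32, limma adjusted p = 0.740) that became 0.18 after scaling. The 2 subunits work as a heterodimer, and MPC1 to MPC2 stood at 1.10, 1.02 and 1.56 in hypoxia, against 1.61, 1.64 and 2.15 in normoxia. Library 3 had the highest ratio in both conditions, and the highest hypoxia value was below the lowest normoxia value by a small margin. The difference was -0.57 log2 units, or -0.75 without hypoxia library 3 (exact two-sided permutation p = 0.1, the smallest possible, adjusted 0.125).

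LDHB needed a second look at its locus. The row with that gene name (ENSSSCG00000032557) lies on chromosome 2 from 12988755 to 12990035 on the minus strand, a span of 1281 bases with 1 transcript. A row without a symbol (ENSSSCG00000000576) lies on chromosome 5. RefSeq places an LDHB gene at both loci, at 12988754 to 12990033 on chromosome 2 and at 51810932 to 51831218 on chromosome 5. The chromosome 5 row was added after the files were seen. The loci were not compared in sequence, and the sources used here do not say how reads that match more than 1 locus were counted, so both rows are uncertain.

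The chromosome 2 row of LDHB had 1.03, 1.11 and 0.610 FPKM in hypoxia, against 1.24, 2.08 and 1.08 in normoxia. Its groups overlapped, with a log2 fold change of -0.35 (95% interval -0.83 to 0.13, limma adjusted p = 0.251). The chromosome 5 row had 246, 217 and 131 FPKM in hypoxia, against 236, 177 and 191 in normoxia, far above the other genes of the set. Its means of 198 ± 59.9 FPKM in hypoxia and 201 ± 30.8 in normoxia (SD, n = 3 each) differed by less than the SD of either group. Its log2 fold change was -0.061 (95% interval -0.66 to 0.54, limma adjusted p = 0.892), 0.29 after scaling and 0.21 without hypoxia library 3.

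The partner subunit gene LDHA had 1303, 1238 and 719 FPKM in hypoxia, against 169, 155 and 129 in normoxia. Its log2 fold change was 2.80 (SE 0.249, limma adjusted p = 0.000738). LDHA to the chromosome 5 row of LDHB stood at 5.30, 5.69 and 5.48 in the hypoxia libraries, against 0.716, 0.875 and 0.677 in the normoxia libraries. LDHB FPKM exceeded LDHA FPKM in every normoxia library and LDHA exceeded LDHB in every hypoxia library, hypoxia library 3 included. With the chromosome 2 row, the planned comparison, the ratio was 1269, 1112 and 1179 in hypoxia, against 136, 74.5 and 119 in normoxia. This difference was 3.47 log2 units (exact two-sided permutation p = 0.1, the smallest possible, adjusted 0.125).

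Ordered by level, the genes ran in hypoxia from the chromosome 5 row of LDHB (198 FPKM) through PDHA1 (27.1), PDK1 (21.0), PDHB (16.1), PDK2 (8.99), DLAT (7.25), PDK3 (6.26), MPC1 (4.21), MPC2 (3.50) and the chromosome 2 row of LDHB (0.917) to PDP1 (0.797). In normoxia the order was the chromosome 5 row of LDHB (201 FPKM), PDHA1 (42.0), PDHB (22.7), DLAT (15.6), PDK2 (7.06), PDK3 (7.01), MPC1 (6.73), MPC2 (3.80), PDK1 (2.00), the chromosome 2 row of LDHB (1.47) and PDP1 (0.893). PDK1 ranked 3 in hypoxia and 9 in normoxia. In hypoxia each neighbour in the order from PDHA1 to MPC2 was closer to the next than the sum of their SDs, as was the chromosome 2 row of LDHB to PDP1. In normoxia this held for PDK2, PDK3 and MPC1, and for PDK1, the chromosome 2 row of LDHB and PDP1. For scale, the median tested gene averaged 5.37 FPKM in hypoxia and 6.68 in normoxia.

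The genes whose profile over the 6 libraries lay nearest to PDK1, by the root mean square difference of log2(FPKM + 1) centred on each gene's own mean, were LDHA (0.23), GABRA2 (0.25), IL33 (0.27), TMEM255A (0.30) and KIT (0.31). The median of the 9268 genes with a symbol was 1.58. LDHA codes for the lactate dehydrogenase subunit above, GABRA2 for a subunit of the receptor for the transmitter GABA, IL33 for a cytokine of the interleukin family and KIT for the receptor of stem cell factor. GABRA2 had 4.86, 7.40 and 2.46 FPKM in hypoxia and was listed at 0 in all 3 normoxia libraries. All 5 shared with PDK1 a lower value in library 3 than in the other hypoxia libraries, which a choice by profile over these libraries favours. Nearest to the chromosome 2 row of LDHB were MRM2 (0.052), MOCS3 (0.074), ATG4A (0.076), RBM17 (0.080) and ZNF576 (0.085), against a median of 0.35. These points share libraries and their scaling.

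Other genes of the complex and its control were read from the same fit. Of 5 further complex genes, all tested, 0 were higher and 1, PDP2, was lower by limma (2 at an unadjusted p under 0.05). Of all tested genes, 5.4% were higher and 21.1% lower. PDP2, the phosphatase isoform best known from liver and fat in rodents, had 1.07, 1.21 and 0.591 FPKM in hypoxia, against 2.52, 2.08 and 2.28 in normoxia. It fell by 0.76 log2 units (SE 0.177, limma adjusted p = 0.0188), but did not pass after scaling (0.0533) or without hypoxia library 1 (0.0664) or normoxia library 1 (0.0819), 2 (0.0689) or 3 (0.0687). PDK4, the kinase isoform that fasting induces in muscle, had 1.72, 2.28 and 1.06 FPKM in hypoxia, against 1.01, 0.548 and 0.744 in normoxia. Its groups did not overlap, and its log2 fold change was 0.59 (limma adjusted p = 0.0821), 0.76 after scaling (0.0278) and 0.76 without hypoxia library 3 (0.00313). PDPR, PDHX and DLD had log2 fold changes of 0.23, -0.39 and -0.40 and did not pass, and without hypoxia library 3 these were 0.16, -0.0098 and -0.071. Of 8 genes for the supply of lipoate and thiamine, cofactors of the complex, 7 were in the table and 3 were tested. Of these 3, 0 passed limma (0 at an unadjusted p under 0.05), where 26.5% of all tested genes passed. Among the 3 tested genes the largest changes were those of SLC19A2, a thiamine transporter (-0.19), and NFU1, an iron-sulfur carrier for lipoate synthesis (0.091). Of the genes under the filter, the lipoate transferase gene LIPT2 had 0.164, 0.149 and 0.115 FPKM in hypoxia, against 0.482, 0.642 and 0.588 in normoxia, and was marked significant in the authors' deposited table (log2 fold change -1.9996, q-value 0.00504). The thiamine transporter gene SLC19A3 averaged 0.0195 FPKM in hypoxia and 0.114 in normoxia, with no overlap.

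**Figure D4:**
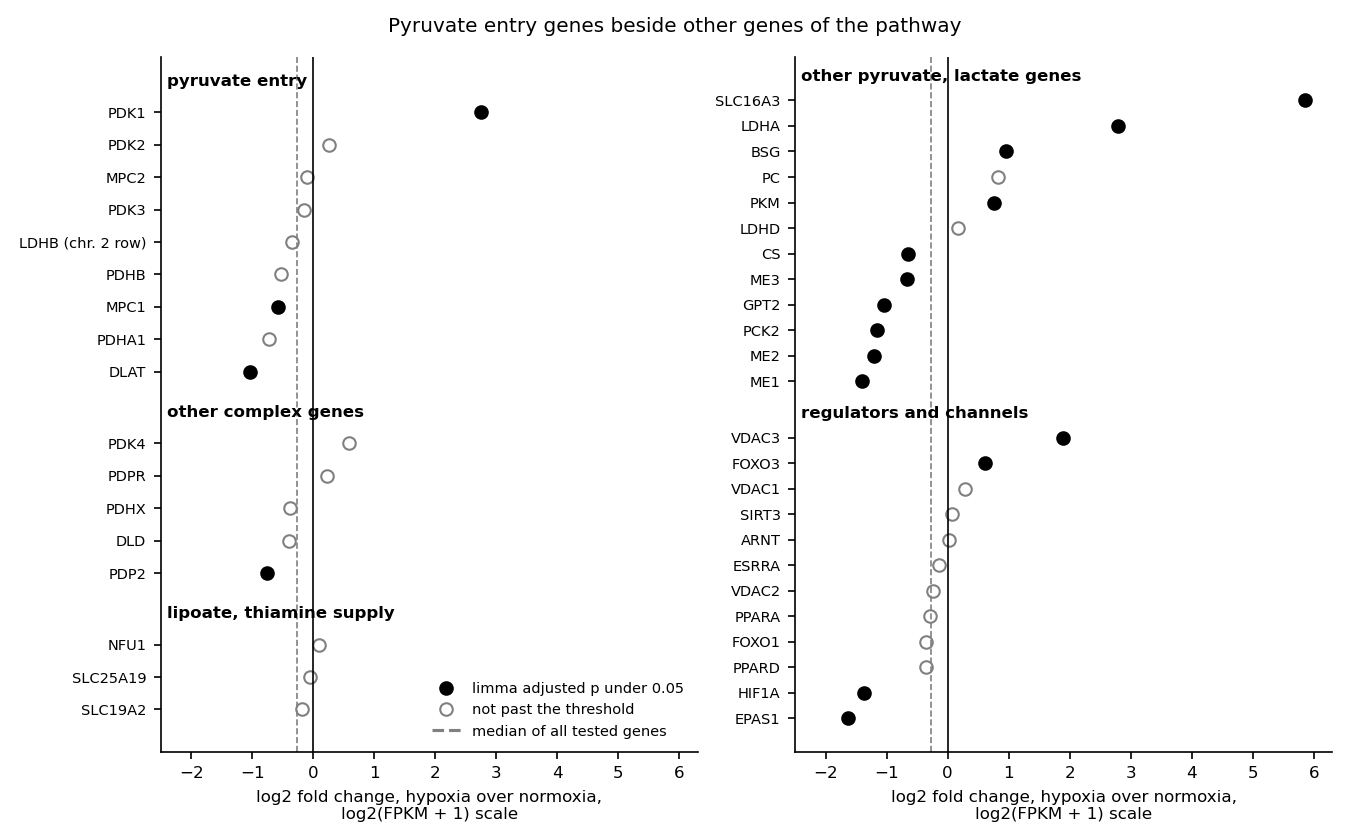
Log2 fold change of hypoxia over normoxia on the log2(FPKM + 1) scale (horizontal axes) for each tested gene of the pyruvate entry set and of 4 lists of related genes, filled where the limma adjusted p was under 0.05; the dashed line is the median of all tested genes. SLC16A3 (5.85), LDHA (2.80), PDK1 (2.74) and VDAC3 (1.89) lie furthest to the right, and EPAS1, ME1 and HIF1A furthest to the left.

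Among genes of the other fates of pyruvate and lactate, 14 of 17 were in the table, 12 were tested, 4 rose and 6 fell, with a median of -0.24, where 5.4% of all tested genes were higher and 21.1% lower. The rising genes were PKM, a pyruvate kinase (0.76), LDHA (2.80), the lactate exporter SLC16A3 (5.85) and BSG, the chaperone of lactate transporters (0.96). SLC16A3 had 99.8, 93.7 and 146 FPKM in hypoxia, against 0.637, 1.03 and 1.19 in normoxia. The falling genes were the malic enzymes ME1 (-1.40), ME2 (-1.21) and ME3 (-0.66), the mitochondrial alanine transaminase GPT2 (-1.04), the mitochondrial carboxykinase PCK2 (-1.16) and citrate synthase CS (-0.65). Of these rising and falling genes, PKM, BSG, ME3 and CS were not marked significant in the authors' deposited table (q-values 0.00289, 0.000217, 0.413 and 0.277). PC, which carboxylates pyruvate to oxaloacetate in mitochondria, had 5.96, 4.27 and 9.19 FPKM in hypoxia, against 2.93, 2.97 and 3.34 in normoxia. All its hypoxia values were higher, and it stood at the threshold with a log2 fold change of 0.82 (limma adjusted p = 0.0509, and 0.0540 after scaling). It passed without hypoxia library 2 (0.0143) or 3 (0.57, adjusted p = 0.0185), and after scaling without hypoxia library 3 (0.00363). The authors' deposited table gave PC 1.07 (q-value 0.00208) and marked it significant. After scaling 4 genes of this list were higher and 3 lower, with ME3 (adjusted p = 0.439), PCK2 (0.0844) and CS (0.267) no longer called. LDHA, SLC16A3, ME1 and PCK2 passed with each library left out. The others did not: PKM had an adjusted p of up to 0.112, ME3 up to 0.135, CS up to 0.0815, ME2 up to 0.0735, BSG up to 0.0526 and GPT2 up to 0.0518.

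Of 13 transcription regulators of these genes and channels of the outer mitochondrial membrane, 12 were tested, 2 rose and 2 fell, where 5.4% of all tested genes were higher and 21.1% lower. VDAC3, a voltage-dependent channel through which pyruvate can cross the outer membrane, had 170, 159 and 91.1 FPKM in hypoxia, against 41.9, 36.6 and 29.7 in normoxia (log2 fold change 1.89, SE 0.265, limma adjusted p = 0.00333). VDAC1 (0.28) and VDAC2 (-0.24) did not pass, and after scaling VDAC1 did (0.63, adjusted p = 0.0426) and VDAC2 had 0.12. FOXO3, a transcription factor reported to act on PDK4, rose by 0.61 (limma adjusted p = 0.0272). Of the subunit genes of the hypoxia-inducible factors, the alpha subunit genes HIF1A and EPAS1 fell by 1.37 (limma adjusted p = 0.0476) and by 1.63 log2 units (0.00408). The beta subunit gene ARNT did not pass (0.026, limma adjusted p = 0.931, and 0.36 after scaling). HIF1A did not pass after scaling (0.0814) or without hypoxia library 1 (0.104) or normoxia library 1 (0.144), 2 (0.144) or 3 (0.110). Without hypoxia library 3 its log2 fold change was -0.88 (adjusted p = 0.00216). FOXO3 passed after scaling but in 1 of the 6 fits without a library, that without hypoxia library 3, with an adjusted p of up to 0.119 in the others. VDAC3 and EPAS1 passed in all of these fits. Transcript levels of HIF1A do not measure the oxygen-controlled HIF-1α protein.

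m6A peaks were read from the authors' lists, which give 1 list per condition with no value per library, so no test between the lists was made. Positions are on Sscrofa11.1, counted from 1. The hypoxia list held 4 peaks in 2 of the 10 genes, and the normoxia list 6 peaks in 5 of them. Of all tested genes, 79.8% had a peak in the hypoxia list and 85.8% in the normoxia list. PDP1, with peaks in both lists, was not among the tested genes behind these shares. PDK2, PDK3, PDHA1, MPC1 and both LDHB rows had no listed peak in either. None of the 10 genes had a peak in the authors' table of differential peaks, which is 0 of the 5 with a listed peak. Of all genes with a peak in either list, 8.76% had one.

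PDP1, with the lowest RNA level of the set, had the most peaks. In hypoxia there were 3, in the 3′ UTR at chr4:42765848-42766386 and in exons at chr4:42771863-42771953 and chr4:42772701-42772941, with log2 enrichments of IP over input of 2.85 (adjusted p = 0.0977), 2.14 and 2.36. In normoxia there were 2 exonic peaks, at chr4:42771744-42772492 and chr4:42772611-42773270, with enrichments of 2.45 and 2.52. Each exonic hypoxia peak lay within the span of a normoxia peak, and the 3′ UTR peak had no counterpart in the normoxia list.

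MPC2 had a 5′ UTR peak in both lists that began at the gene's first base, chr4:83069748-83069838 in hypoxia (log2 enrichment 1.04, adjusted p = 0.110) and chr4:83069748-83069928 in normoxia (2.74, adjusted p = 0.000195). The difference between the lists was not tested. PDK1, DLAT and PDHB had no listed peak in hypoxia and 1 each in normoxia. That of PDK1 lay in the 3′ UTR (chr15:78648380-78648529, log2 enrichment 0.95, adjusted p = 0.00589), that of DLAT in an exon (chr9:39744524-39744584, 0.52) and that of PDHB was annotated to the 5′ UTR (chr13:40165597-40167476, 0.97). All 3 enrichments lay below the median of the normoxia list, 2.08. The PDK1 peak was listed in the condition in which PDK1 had 2.00 FPKM, and none in that in which it had 21.0 FPKM.

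**Figure D5:**
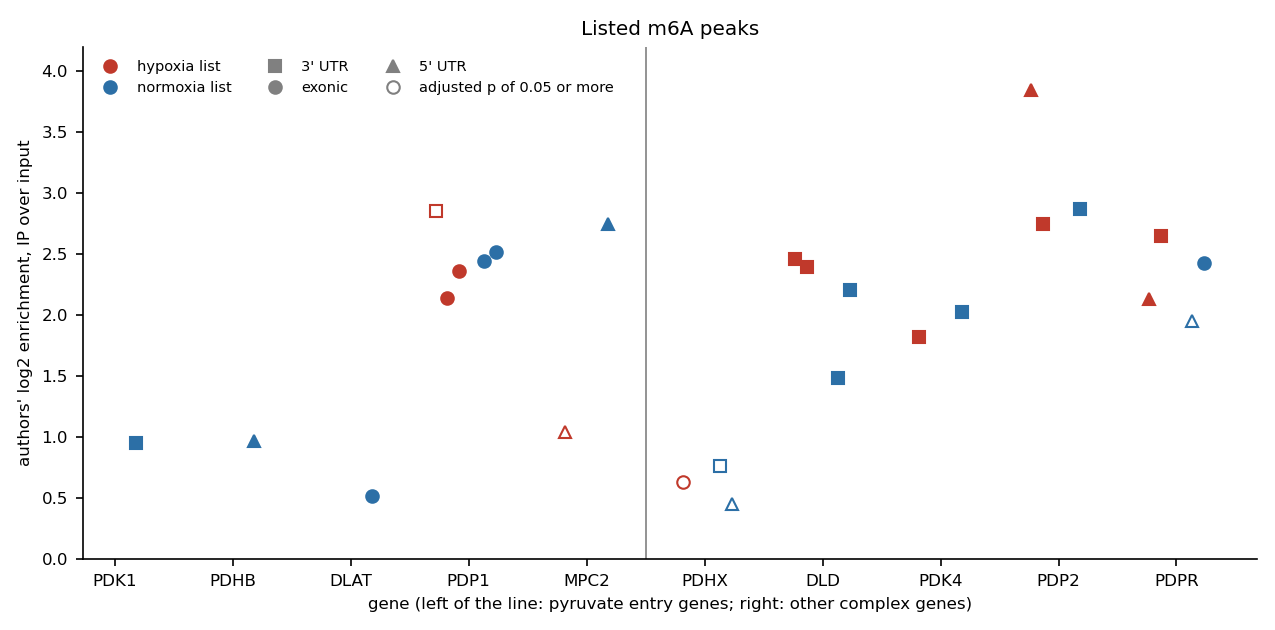
Authors' log2 enrichment of IP over input (vertical axis) for each listed m6A peak of the 5 pyruvate entry genes with a peak (left) and of 5 other genes of the complex (right), from the hypoxia (red) and normoxia (blue) lists, with symbols for the annotated region and open symbols for an adjusted p of 0.05 or more. PDK1, PDHB and DLAT have a peak in the normoxia list alone, at 0.95, 0.97 and 0.52, and every gene on the right has a peak in both lists. All symbols of PDHX are open.

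The 5 other complex genes all had peaks in both lists, most of them in the 3′ UTR. Of all tested genes, 79.8% had a listed peak in hypoxia and 85.8% in normoxia. No PDHX peak reached an adjusted p under 0.05 in the authors' lists (0.139 in hypoxia, 0.0603 and 0.135 in normoxia). PDK4 carried 1 peak in the 3′ UTR in each list, with log2 enrichments of 1.82 in hypoxia and 2.03 in normoxia, so a 3′ UTR peak was listed under both conditions for PDK4 and in normoxia alone for PDK1. DLD, the dihydrolipoamide dehydrogenase of the complex, had 2 peaks in the 3′ UTR in each list and was the 1 complex gene with a differential peak (chr9:107671138-107671935). The authors' difference there was 0.27 log2 units, higher in hypoxia (adjusted p = 0.00316), while the DLD RNA did not pass the expression test (log2 fold change -0.40, limma adjusted p = 0.413, -0.071 without hypoxia library 3 and -0.19 after scaling).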

How the data were processed

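Input RNA was measured in 3 hypoxia and 3 normoxia libraries. The FPKM values are as deposited by the authors. Per the submitters' processing notes, the authors used HISAT2 2.0.4 and StringTie 2.1.2, HOMER 4.10 and edgeR 4.1, and fastp 0.19.4 and FastQC, with Sscrofa11.1. These notes give no role for each tool. The authors' deposited tables also hold log2 fold changes, p-values and q-values per gene and, per peak, a log2 enrichment or difference with p-values, from which positions were raised by 1 at the start because 3085 hypoxia and 3369 normoxia peaks began 1 base before their gene and 0 at it. The table repeats the FPKM in 6 further columns that were not used. FPKM hold no fragment counts, so no counting interval is given.

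From these, limma 3.58.1 in R 4.3.3 (variance trend, robust estimation) was run on log2(FPKM + 1), which understates changes of low genes. It covered genes that reached 1 FPKM in 3 or more libraries, with Benjamini-Hochberg adjustment over all 10196. The fit was also run on simulated data with independent noise of equal spread in both groups. These held no outlying library and no general shift, so they cannot show how the fit handles either. Ratios within libraries were compared by exact two-sided permutation. The median-ratio scaling divided each library by its median ratio to the geometric mean. Positive differential peaks were read as higher in hypoxia, since 87 of 519 overlapped the hypoxia list alone and 1 the normoxia list alone. Symbols came from the file for 13660 genes and from a gene name table for 120. List genes found by neither were sought by RefSeq position (at least 80% of both spans), as was the second LDHB row. Other genes without a symbol kept their identifier. The members and lists were chosen with earlier results of these data known. All members were named, with each list gene at an adjusted p under 0.05 (where none passed, the 2 largest changes) and the 5 genes nearest in profile to PDK1 and to LDHB; PDK4, PC, PDPR, PDHX, DLD, LIPT2, SLC19A3, ARNT, VDAC1 and VDAC2 were named after their values were seen.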

Additional observations from a re-analysis of the deposited data

How the results depend on the processing

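PDK1 passed under every alternative run for it. Without hypoxia library 3, PDK2 had a log2 fold change of -0.033, PDK3 0.031 and the chromosome 5 row of LDHB 0.21, the last also 0.058 without normoxia library 1. After median-ratio scaling PDK3 had 0.15, MPC2 0.18, the chromosome 5 row of LDHB 0.29 and MPC1 -0.27 (adjusted p = 0.418). Scaling without hypoxia library 3, chosen after seeing the data, gave 0.24 for PDK3, 0.029 for PDHB, 0.18 for MPC2 and 0.45 for the chromosome 5 row of LDHB. With a library left out, log2 fold changes ranged from -1.24 to -0.80 for DLAT, from -0.64 to -0.47 for MPC1, from -1.02 to -0.31 for PDHA1, from -0.033 to 0.47 for PDK2, from -0.32 to 0.031 for PDK3 and from -0.24 to 0.21 for the chromosome 5 row of LDHB. The cause of these shifts was not tested.

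Over all tested genes, 551 were higher and 2148 lower in hypoxia, 748 and 753 after scaling, 2108 and 2031 after scaling without hypoxia library 3, and 334 to 1143 higher and 798 to 3186 lower with a library left out. Of the 10 genes, 1 was lower after scaling and 0 to 2 with a library left out. Further complex genes came to 1 higher and 0 lower after scaling, 1 higher after scaling without hypoxia library 3, and 0 to 1 higher and 0 to 1 lower with a library left out. Cofactor genes came to 1 higher after scaling without hypoxia library 3 and 2 lower with no filter. The fit with no filter took in all genes not at 0 throughout, including those near 0, and called 775 higher and 2088 lower. Pyruvate and lactate genes came to 3 lower after scaling, and 2 to 5 higher and 2 to 6 lower with a library left out. Regulators came to 4 higher after scaling without hypoxia library 3, to 1 lower with pseudocounts of 0.1 and 0.5, with no filter and after scaling, and to 1 to 2 higher and 1 to 3 lower with a library left out.

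Peaks with an adjusted p under 0.05 numbered 2 in 1 gene in hypoxia and 6 in 5 genes in normoxia, and those of at least 4-fold enrichment 3 in 1 gene and 3 in 2 genes. The share of all genes at these thresholds was not computed, so these counts cannot be read as particular to the set. The sources used here do not say whether the replicate numbers pair the libraries. Deviations of same-numbered libraries from their group means correlated at 0.586, 0.0398 and 0.697, and hypoxia library 2 correlated best with normoxia library 1 (0.641). Deviations within 3 libraries depend on each other, so these values cannot decide the pairing. With the replicate block, 695 genes were higher and 2768 lower, and 1 and 2 of the 10 genes.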

Other observations

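Differential m6A peaks of the other lists lay on 5 further genes, with values from the authors' deposited table. These were 1 of 14 pyruvate and lactate genes and 4 of 13 regulators and channels, with 0 of 7 cofactor genes. Of all genes with a peak in either list, 8.76% had a differential peak. The EPAS1 peak, annotated as exonic (chr3:94175749-94183038), was 1.47 log2 units higher in hypoxia (adjusted p = 1.585e-17), in a gene whose RNA was lower. The exonic CS peak (chr5:21671095-21671244) was 0.48 higher (adjusted p = 0.00759), and a 5′ UTR peak of FOXO1 (chr11:15410083-15410323) had a difference of -0.51 (adjusted p = 0.0316). Peaks of PPARA (0.46, adjusted p = 0.281) and FOXO3 (0.32, adjusted p = 0.239) were listed at an unadjusted p under 0.05.

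In hypoxia library 3 the genes of the set moved apart: relative to the mean of the other hypoxia libraries, PDK1 had 0.345 times the FPKM, PDHA1 0.399, PDHB 0.470 and DLAT 0.549 times, while PDK2 had 1.93 times and MPC1 1.16 times. Over all tested genes the median difference there was -0.20 log2 units. In normoxia library 3, relative to the mean of the other normoxia libraries, PDK1 had 0.643 times, PDK2 1.20 times and PDHA1 0.830 times the FPKM.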
